A study of Mus musculus with 24 samples.

Results

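The genes that make, break down and store glucose in the liver were followed as a group of 34 genes. They were chosen by name, with earlier results of these data known. The group held 4 genes of gluconeogenesis, 3 of glucose phosphorylation and its control, 2 bifunctional regulators of glycolysis, 11 core glycolytic enzymes, 3 of fructose use and glucose transport, 6 of glycogen metabolism and 5 of the pentose phosphate pathway. Each deposited table listed 24319 genes. All 34 members had an entry of their own in isolated hepatocytes, and 33 had one in whole liver, where Eno1 shared an entry with Eno1b.

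PolyA RNA had been sequenced from whole liver and from isolated hepatocytes of 2-month-old male C57/BL6 mice, 24 samples in all, with 3 biological replicates for each of 4 genotypes in each tissue. IkkB KO mice were Alb-Cre+;IkkBf/f, Shp2 KO mice were Alb-Cre+;Shp2f/f and Double KO mice were Alb-Cre+;IkkBf/f;Shp2f/f. WT mice were the controls, and their labels name neither Cre nor a floxed allele. The albumin promoter drives Cre in hepatocytes, so the other cells of whole liver were not the intended target of either deletion. Ikbkb encodes IkkB, a kinase upstream of NF-κB, and Ptpn11 encodes Shp2, a phosphatase through which growth factor receptors reach Ras and Erk. The question behind the design was what happens in the liver when both pathways are lost together.

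For each gene a table holds 1 value per genotype and none per replicate, so no SD can be given and the depth of the libraries is unknown. Values are quoted as the authors' FPKM (fragments scaled by the length of the transcript and the size of the library), the unit that Cuffdiff normally writes. Differences are on the log2(value + 1) scale, knockout minus WT, which understates the change of genes with low values. A member is said to have risen or fallen where its q in the authors' deposited table was under 0.05 and a genotype reached at least 0.1. No other measure of replicate error is at hand. All knockouts of a tissue were compared with the same WT libraries. Each tissue was normalized in a table of its own, and values are compared inside that table. A few WT values of both are set side by side at the end, without a test.

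The targeted genes followed the labels. Ikbkb had values of 9.48 in IkkB KO livers, 14.2 in Shp2 KO livers, 6.31 in Double KO livers and 15.7 in WT livers. Ptpn11 had values of 10.1 in IkkB KO livers, 4.09 in Shp2 KO livers, 6.09 in Double KO livers and 12.5 in WT livers. In each tissue both targets fell in the 2 genotypes that lack them, by q in the authors' deposited table. Markers of other liver cells differed between genotypes as well. The summed value of 14 macrophage markers was 408 in IkkB KO, 426 in Shp2 KO, 871 in Double KO and 308 in WT livers, and all 14 rose in Double KO livers, against 3 in IkkB KO and 5 in Shp2 KO livers. In isolated hepatocytes the same sum was 367 in IkkB KO, 301 in Shp2 KO, 383 in Double KO and 122 in WT samples, and 13, 13 and 14 of the 14 markers rose in the 3 knockouts. The 5 hepatocyte markers that could be tested summed to 13760 in IkkB KO, 10261 in Shp2 KO, 9356 in Double KO and 15168 in WT livers. In isolated hepatocytes 5 such markers summed to 14784 in IkkB KO, 10904 in Shp2 KO, 13453 in Double KO and 17434 in WT samples. None of the hepatocyte markers was called in IkkB KO or Double KO samples of either tissue, and 1 was lower in Shp2 KO samples of each (Fgb in liver and Apoa1 in hepatocytes, named after their values were seen). With markers too abundant to test included, which are listed at 0 in some genotypes, the liver sums were 13760 in IkkB KO, 18296 in Shp2 KO, 15239 in Double KO and 15168 in WT livers. The sums with such markers in isolated hepatocytes were 14784 in IkkB KO, 16674 in Shp2 KO, 20748 in Double KO and 42232 in WT samples. Alb, Serpina1a and Ahsg were among the 38 liver genes too abundant for Cuffdiff to test and were listed at 0 in every genotype. In bulk samples, fewer cells of a type and less RNA per cell cannot be told apart.

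Hepatocytes hold the glucose balance of the body. After a meal they take up glucose, phosphorylate it, store it as glycogen and pass the rest down glycolysis to pyruvate, which feeds fatty acid synthesis. Between meals they break glycogen down and build new glucose from lactate, amino acids and glycerol, and glucose-6-phosphatase releases it to the blood. The pentose phosphate pathway draws on glucose 6-phosphate to make NADPH and ribose. Hepatocytes depend on liver forms of several enzymes, such as Pklr for pyruvate kinase and Slc2a2 for transport, whereas Pkm, Hk1 and Slc2a1 are the forms of most other cells.

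Promoters of 3 members at key steps are shown because each carries a short sequence linked to fuel control. They are the 250 bases before the transcription start in RefSeq (mouse GRCm38.p6, a build other than that of the deposited tables), on the plus strand and written 5′ to 3′, with the matched motif in capitals. Pklr encodes the liver pyruvate kinase and is a textbook target of the glucose-sensing factor ChREBP (Mlxipl), and its downstream start at chr3:89136373-89136622 carries a match to the carbohydrate response element pattern, CACGNG and CNCGTG set 5 bases apart. G6pc encodes the catalytic unit of glucose-6-phosphatase, and its promoter at chr11:101367466-101367715 holds ATCAAT, the core bound by HNF6 (Onecut1). Pck1 encodes the cytosolic phosphoenolpyruvate carboxykinase, the committing enzyme of gluconeogenesis, and its promoter at chr2:173152823-173153072 holds CGTCA, the reverse complement of the cAMP response half-site TGACG.
Pklr: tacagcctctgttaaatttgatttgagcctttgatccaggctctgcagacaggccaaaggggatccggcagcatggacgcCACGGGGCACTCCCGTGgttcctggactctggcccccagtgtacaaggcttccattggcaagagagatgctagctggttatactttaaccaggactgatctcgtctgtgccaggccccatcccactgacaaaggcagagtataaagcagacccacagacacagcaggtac
G6pc: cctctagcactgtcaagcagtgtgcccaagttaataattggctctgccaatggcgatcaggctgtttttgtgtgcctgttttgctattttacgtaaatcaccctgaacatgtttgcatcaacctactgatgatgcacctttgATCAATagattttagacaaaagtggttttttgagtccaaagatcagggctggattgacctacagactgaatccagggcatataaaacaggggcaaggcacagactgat
Pck1: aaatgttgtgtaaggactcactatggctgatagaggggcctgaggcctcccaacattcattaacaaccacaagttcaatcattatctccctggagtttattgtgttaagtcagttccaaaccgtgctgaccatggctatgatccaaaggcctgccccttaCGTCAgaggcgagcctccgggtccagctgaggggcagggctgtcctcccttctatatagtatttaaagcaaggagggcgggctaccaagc

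Counted from the start site, the Pklr match lay at -170 to -154, the G6pc match at -108 to -103 and the Pck1 match at -90 to -86. Both strands of 32851 RefSeq promoter windows were searched, of which 47 belonged to 32 members. The carbohydrate response pattern was in 13 windows, or 0.0396% of all of them, and Pklr was the 1 member among them. ATCAAT was in 6.72% of all windows and in 4 of the 47 member windows, those of G6pc, Pfkfb1, Slc2a2 and Tpi1. TGACG was in 17.8% of all windows and in 9 of the 47 member windows. These 9 belonged to 7 members, Hk2, Khk, Ldha, Pck1, Pfkfb3, Pygl and Taldo1. The E-box CACGTG is a core that overlaps with the ends of the carbohydrate response pattern. It was in 6.02% of all windows and in 5 of the 47 member windows, those of Khk, Ldha, Pcx, Pfkfb3 and Ppp1r3c. A match describes the letters of the window and is not a measured binding site.

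In mice without both genes some liver forms of glycolytic and glycogen genes fell, while most of the central enzymes did not pass the test. Pklr, Gys2 and Ppp1r3b fell in both tissues of the Double KO, and Pfkfb1 and Pygl fell in liver only. Pfkl, the liver phosphofructokinase, passed the test in neither tissue. In Double KO livers 12 of 33 members fell and 5 rose, against 6.62% and 11.5% of all 12940 tested genes. Together these calls were 51.5% of the members, beside 18.1% of all tested genes. Shp2 KO livers had 5 members that fell and 2 that rose (21.2% of the members), beside 4.10% and 5.23% of 12588 tested genes (9.33% in all). A single member, Pfkfb3, rose in IkkB KO livers and none fell, where 2.37% of 12484 tested genes rose and 2.17% fell (4.54% in all).

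In isolated hepatocytes 8 of 34 members fell and 4 rose in Double KO mice, beside 4.56% and 9.04% of 12174 tested genes (13.6% in all). In Shp2 KO hepatocytes 5 of 33 tested members fell and 2 rose, beside 4.53% and 7.13% of 12076 tested genes (11.7% in all). IkkB KO hepatocytes showed 2 members that fell and 6 that rose, beside 1.81% and 7.60% of 12135 tested genes (9.41% in all). The median member difference in hepatocytes was 0.19 for IkkB KO, 0.05 for Shp2 KO and -0.16 for Double KO samples, where the medians over all tested genes were 0.0015, -0.01 and 0.01. In liver the member medians were 0.12 for IkkB KO, -0.002 for Shp2 KO and -0.07 for Double KO samples. The medians over all tested liver genes were -0.01, -0.03 and -0.03. In at least 1 of the 6 comparisons with WT, over both tissues, 19 members were called, and 15 were called in none. Pfkfb3, Pklr and Ppp1r3c were each called in 5. Of the 52 calls against WT, 28 also had a q under 0.01 in the authors' deposited table and 10 had a log2 difference of at least 1 in size.

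**Figure D1:**
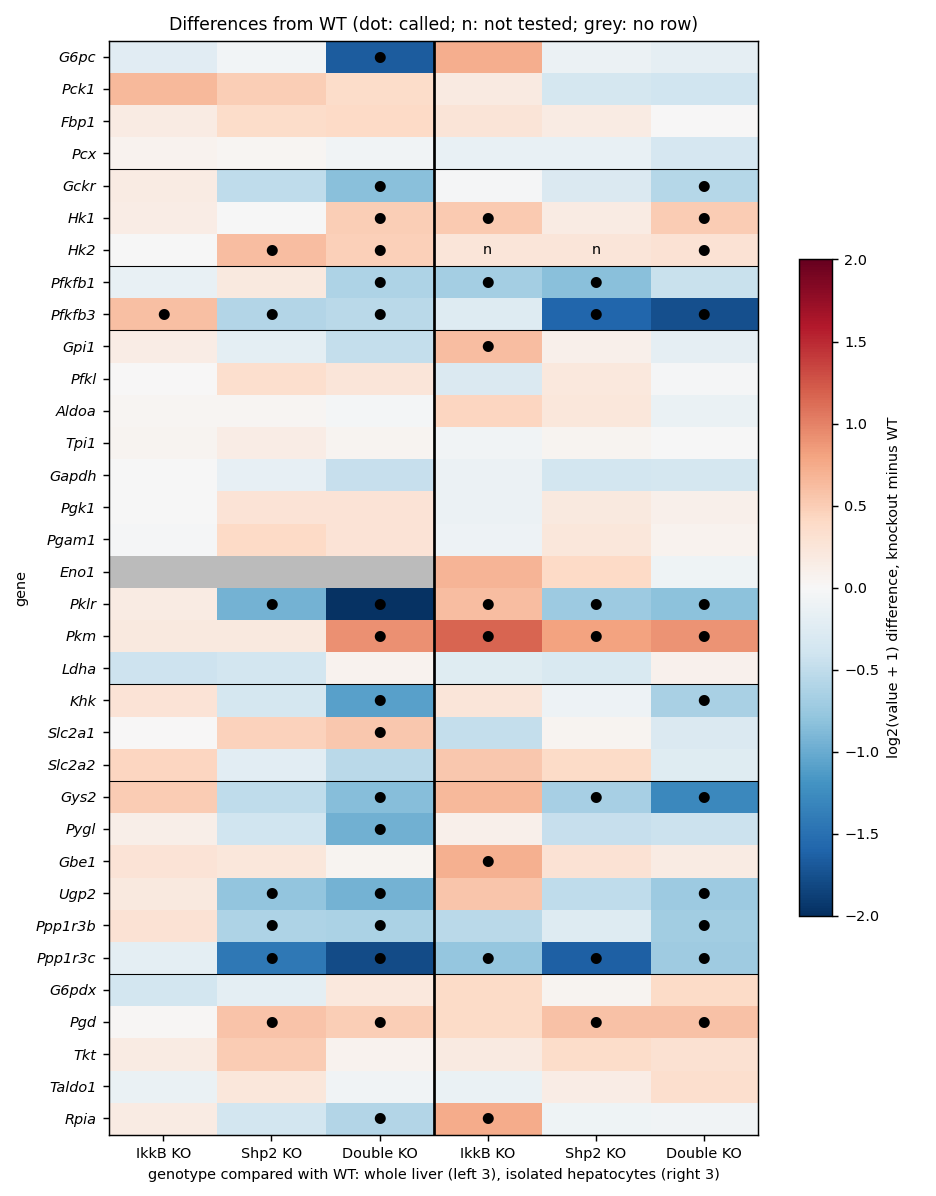
Differences from WT on the log2(value + 1) scale for each member (vertical, grouped by role) in the 3 knockouts of whole liver and of isolated hepatocytes (horizontal). Blue is lower and red higher in the knockout, a dot marks a called gene, n a gene that was not tested and grey a gene without its own entry. The blue columns of Double KO livers run through Pklr (-1.98), Ppp1r3c (-1.79) and G6pc (-1.66).

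Among the gluconeogenic genes G6pc moved and the others did not pass the test. G6pc had values of 278 in IkkB KO, 314 in Shp2 KO, 103 in Double KO and 326 in WT livers. Double KO livers stood alone at the low end, at 31.5% of the WT value, a log2 difference of -1.66 (q = 0.000955 in the authors' deposited table, the smallest q that table holds). In isolated hepatocytes the G6pc values were 458 in IkkB KO, 255 in Shp2 KO, 245 in Double KO and 277 in WT samples. There the Double KO difference was -0.18 (q = 0.733 in the authors' deposited table), so the fall was called in whole liver and not in hepatocytes, and the difference between the tissues was not tested.

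Pck1 had the highest value of all members in WT samples of both tissues. Its values were 1592 in IkkB KO, 1439 in Shp2 KO, 1316 in Double KO and 1020.4 in WT livers, so every knockout lay above WT. The largest of these differences was 0.64 in IkkB KO livers and did not pass the test (q = 0.235 in the authors' deposited table). In hepatocytes Pck1 had values of 2219 in IkkB KO, 1523 in Shp2 KO, 1482 in Double KO and 1951 in WT samples, with the lowest value now in Double KO samples. Fbp1, the fructose-1,6-bisphosphatase that opposes phosphofructokinase, and Pcx, which carboxylates pyruvate at the start of the route, differed from WT by -0.34 to 0.39 over both tissues and were called nowhere.

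Glucose phosphorylation moved in opposite directions in the regulator and in the hexokinases. Gckr encodes a regulatory protein that restrains glucose phosphorylation in hepatocytes, and hexokinases 1 and 2 are the high-affinity enzymes found mostly outside hepatocytes. Gckr had values of 122 in IkkB KO, 76.0 in Shp2 KO, 59.9 in Double KO and 108 in WT livers. It fell in Double KO livers to 55.3% of WT (log2 difference -0.84). In hepatocytes Gckr had 117 in IkkB KO, 97.4 in Shp2 KO, 80.6 in Double KO and 119.6 in WT samples, and the Double KO again stood lowest. Its fall there (-0.56, q = 0.0347 in the authors' deposited table) was lost when p-values were adjusted within that comparison alone (q = 0.0641).

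Hk1 had values of 1.13 in IkkB KO, 0.918 in Shp2 KO, 1.71 in Double KO and 0.920 in WT livers, and 0.931, 0.504 and 0.911 in IkkB KO, Shp2 KO and Double KO hepatocytes, against 0.346 in WT hepatocytes. It rose in Double KO livers and in IkkB KO and Double KO hepatocytes, with log2 differences of 0.49, 0.52 and 0.51. Hk2 had values of 0.340 in IkkB KO, 1.07 in Shp2 KO, 0.882 in Double KO and 0.354 in WT livers. The Shp2 KO and Double KO livers thus stood above the other 2 genotypes, with rises of 0.61 and 0.47. In hepatocytes Hk2 was at 0.298 in IkkB KO, 0.298 in Shp2 KO, 0.345 in Double KO and 0.0958 in WT samples. It was tested only in Double KO samples, where it rose by 0.30 on the log2(value + 1) scale. In that comparison Hk2 met the minimum of 0.1 only through its Double KO value. A minimum of 1 in either genotype would drop Hk2 in Double KO livers and hepatocytes and Hk1 in hepatocytes. The low Hk1 and Hk2 values lay beside a macrophage marker sum that was higher in the knockouts, and the part of macrophages in these rises was not tested.

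The 2 bifunctional enzymes, which make and remove the phosphofructokinase activator fructose 2,6-bisphosphate, were both low in Double KO livers. Pfkfb1 is the liver form, in which phosphorylation under glucagon favours the phosphatase, and Pfkfb3 is an inducible form with strong kinase activity. Pfkfb3 had values of 15.2 in IkkB KO, 6.10 in Shp2 KO, 6.38 in Double KO and 9.69 in WT livers, so IkkB KO lay above WT and the genotypes without Shp2 below it. The rise in IkkB KO livers was 0.60 (q = 0.0114 in the authors' deposited table) and the falls were -0.59 in Shp2 KO and -0.53 in Double KO livers. In hepatocytes the values were 5.68 in IkkB KO, 1.65 in Shp2 KO, 1.37 in Double KO and 6.99 in WT samples. Pfkfb3 fell there to 23.6% of WT in Shp2 KO and to 19.6% of WT in Double KO samples, the deepest fall of any member in hepatocytes of the Double KO (-1.75). The IkkB KO difference in hepatocytes was -0.26 and was not called.

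Pfkfb1 had values of 21.1 in IkkB KO, 27.0 in Shp2 KO, 15.0 in Double KO and 23.4 in WT livers. It fell in Double KO livers (-0.62, q = 0.0217 in the authors' deposited table). In hepatocytes the values were 13.0 in IkkB KO, 11.6 in Shp2 KO, 15.5 in Double KO and 21.4 in WT samples, with all 3 knockouts below WT. There the falls were called in the single knockouts, at -0.68 in IkkB KO and -0.83 in Shp2 KO samples, while the Double KO difference of -0.45 was not (q = 0.115 in the authors' deposited table).

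Of the core glycolytic enzymes, the 2 pyruvate kinases moved apart in Double KO mice of both tissues and in Shp2 KO hepatocytes. In IkkB KO hepatocytes both rose. Pyruvate kinase makes pyruvate in the last step of glycolysis, and Pklr gives the liver form that is switched on by feeding. Pklr had values of 261 in IkkB KO, 122 in Shp2 KO, 58.6 in Double KO and 234 in WT livers. The order ran from IkkB KO and WT at the top through Shp2 KO to Double KO, which reached 25.0% of WT, the deepest fall of any member in liver (-1.98, q = 0.000955 in the authors' deposited table). Shp2 KO livers reached 52.0% of WT (-0.94, with the same q). In hepatocytes Pklr had 265 in IkkB KO, 104 in Shp2 KO, 96.8 in Double KO and 172 in WT samples. It fell by 0.72 in Shp2 KO and by 0.82 in Double KO hepatocytes on the log2 scale. IkkB KO hepatocytes lay above WT by 0.62 (q = 0.0493 in the authors' deposited table), a call that was lost when p-values were adjusted within that comparison (q = 0.13).

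Pkm gives the pyruvate kinase of muscle, proliferating cells and most cells other than hepatocytes. Its values were 7.48 in IkkB KO, 7.56 in Shp2 KO, 13.0 in Double KO and 6.44 in WT livers, and the Double KO rise was called (0.91, or 202% of WT). In hepatocytes Pkm had 6.09 in IkkB KO, 4.56 in Shp2 KO, 4.93 in Double KO and 2.17 in WT samples. All 3 knockouts rose there, by 1.16, 0.81 and 0.90, and the IkkB KO rise was the largest of any member in hepatocytes. The same samples had the higher macrophage marker sums given above, with Cd68, Adgre1 and Clec4f among the markers that rose in Double KO livers. Stellate cell and fibroblast markers summed to 238 in Double KO livers against 111 in WT livers, and to 127, 67.3 and 75.1 in IkkB KO, Shp2 KO and Double KO hepatocytes against 32.8 in WT hepatocytes. Endothelial markers summed to 132, 76.6 and 117 in IkkB KO, Shp2 KO and Double KO hepatocytes against 68.1 in WT hepatocytes, and 11, 0 and 8 of 13 rose. In liver the endothelial sum was 149 in Double KO and 145 in WT samples, and 1 of 13 rose in the Double KO. Bile duct markers summed to 144 in Double KO livers against 57.6 in WT livers, where 1 of 6 tested rose. In hepatocytes they summed to 27.2, 40.7 and 57.6 in IkkB KO, Shp2 KO and Double KO samples against 14.6 in WT samples. The part of these cells in the Pkm rise was not tested.

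Few of the steps between glucose 6-phosphate and pyruvate passed the test. Gpi1, the isomerase that opens the pathway, had values of 89.9 in IkkB KO, 70.2 in Shp2 KO, 57.8 in Double KO and 80.7 in WT livers and was not called there. In hepatocytes it had 92.5 in IkkB KO, 64.5 in Shp2 KO, 52.4 in Double KO and 59.8 in WT samples, and its rise in IkkB KO (0.62, q = 0.0214 in the authors' deposited table) was lost on adjustment within that comparison (q = 0.0594). The other 7 enzymes with an entry in both tables were Pfkl (liver phosphofructokinase), Aldoa (aldolase), Tpi1 (triose phosphate isomerase), Gapdh, Pgk1 (phosphoglycerate kinase), Pgam1 (phosphoglycerate mutase) and Ldha (lactate dehydrogenase). Their differences from WT ran from -0.46 to 0.40 in liver and from -0.37 to 0.43 in hepatocytes. The smallest q-values among them in the authors' deposited table were 0.147 in liver and 0.12 in hepatocytes.

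Ldha had values of 429 in IkkB KO, 444 in Shp2 KO, 599.8 in Double KO and 572 in WT livers, and Gapdh had 464, 419 and 340.5 in IkkB KO, Shp2 KO and Double KO livers against 469 in WT livers. Eno1 (enolase) was low in hepatocytes, with 1.501 in IkkB KO, 1.06 in Shp2 KO, 0.470 in Double KO and 0.561 in WT samples, none called. The shared Eno1 and Eno1b entry in liver had 6.04 in IkkB KO, 3.96 in Shp2 KO, 4.54 in Double KO and 3.48 in WT livers. Gapdh, Pgk1, Pgam1, Tpi1, Ldha and Eno1 have near-identical processed copies in the mouse genome, so their values are uncertain where reads could be assigned to a copy.

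**Figure D2:**
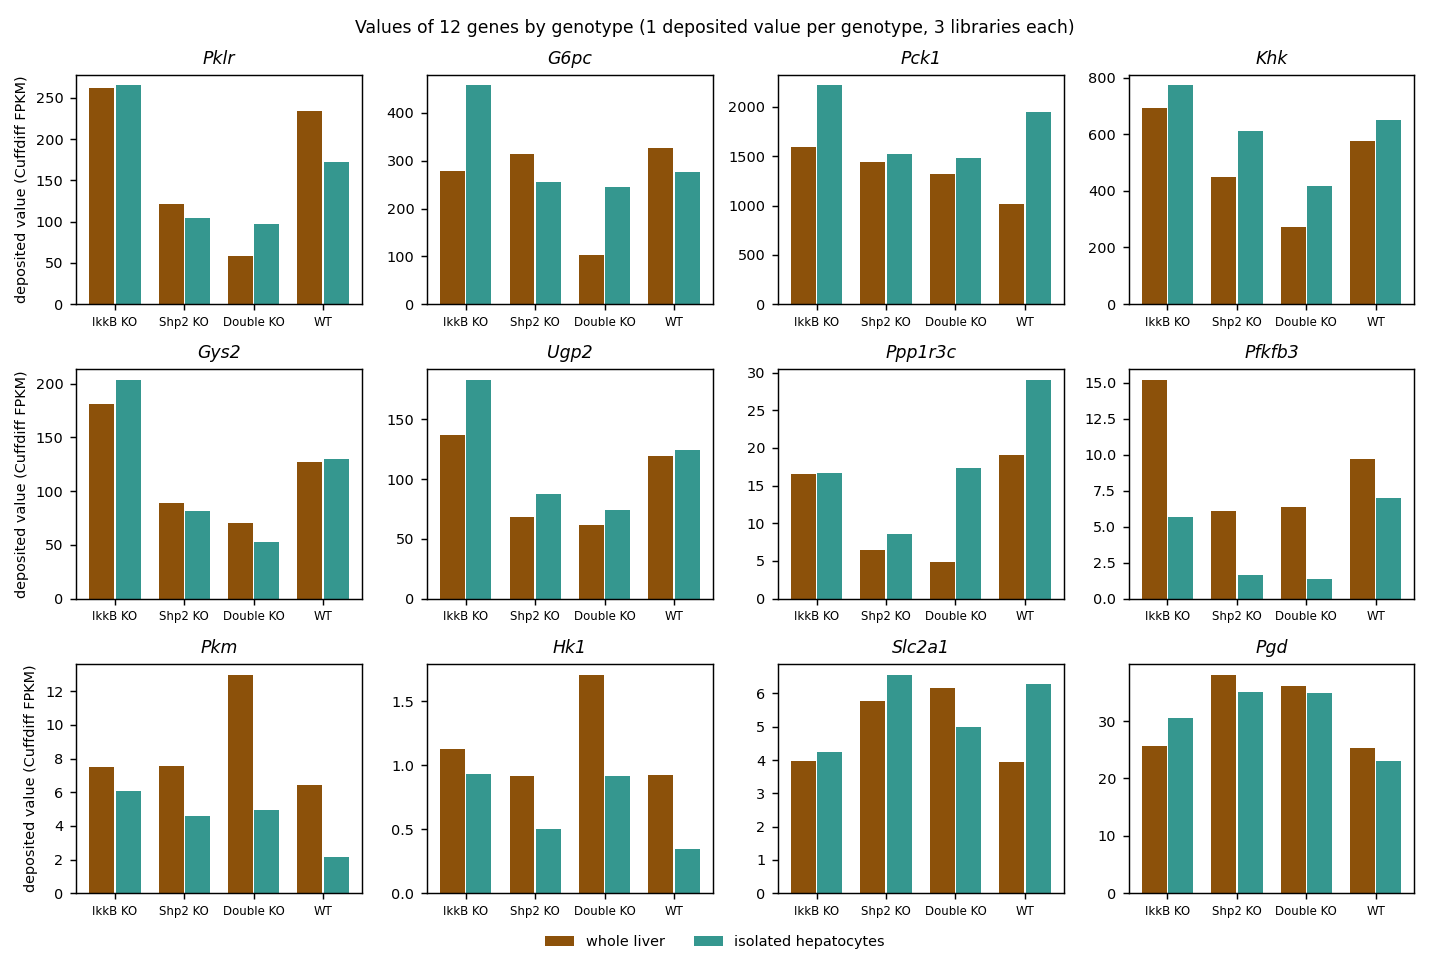
Deposited values (vertical axes, each starting at 0) of 12 members in IkkB KO, Shp2 KO, Double KO and WT samples, with brown bars for whole liver and green bars for isolated hepatocytes. Each bar is 1 value per genotype without an error. Pklr, Khk, Gys2 and Ugp2 are lowest in the Double KO of both tissues, and Pkm is highest in Double KO livers (13.0) and in IkkB KO hepatocytes (6.09).

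Of the genes of fructose use and glucose transport, Khk fell in Double KO mice of both tissues, Slc2a1 rose in Double KO livers and Slc2a2 was not called against WT. Khk encodes ketohexokinase, which phosphorylates fructose. It had values of 694 in IkkB KO, 449 in Shp2 KO, 271 in Double KO and 576 in WT livers, and fell in Double KO livers to 47.1% of WT (-1.08). In hepatocytes Khk had 773 in IkkB KO, 611 in Shp2 KO, 417 in Double KO and 652 in WT samples, and fell in Double KO samples (-0.64, q = 0.0276 in the authors' deposited table). That call missed the threshold when p-values were adjusted within the comparison (q = 0.0518). In both tissues the order was IkkB KO, WT, Shp2 KO and Double KO, high to low.

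Slc2a1 encodes GLUT1, the transporter of most cells. It had values of 3.97 in IkkB KO, 5.78 in Shp2 KO, 6.17 in Double KO and 3.93 in WT livers, and rose in Double KO livers (0.54, q = 0.0296 in the authors' deposited table), the samples with the highest macrophage and stellate cell marker sums, whose part in this rise was not tested. Hepatocyte values were 4.24 in IkkB KO, 6.57 in Shp2 KO, 4.9998 in Double KO and 6.29 in WT samples, with no call. Slc2a2 encodes GLUT2, the main transporter of hepatocytes, and was not called against WT. Its values were 145 in IkkB KO, 93.3 in Shp2 KO, 73.6 in Double KO and 108 in WT livers, with IkkB KO above and Double KO below WT.

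Most of the 6 glycogen members fell in Double KO mice. In Double KO livers 5 of the 6 members fell and in Double KO hepatocytes 4 did, beside 6.62% and 4.56% of all tested genes. Shp2 KO mice had 3 of 6 that fell in liver and 2 of 6 in hepatocytes, beside 4.10% and 4.53% of all tested genes. The group's median difference in liver was 0.23 for IkkB KO, -0.56 for Shp2 KO and -0.90 for Double KO mice, where all tested genes had medians of -0.01, -0.03 and -0.03. In hepatocytes the group's medians were 0.33 for IkkB KO, -0.48 for Shp2 KO and -0.70 for Double KO mice. Further glycogen genes, part of the wider list given below, did not share the fall. Of 19 tested in Double KO livers 0 fell and 2 rose, beside 11.5% of all tested genes that rose. Of 18 tested in Double KO hepatocytes 0 fell and 2 rose, beside 9.04% that rose.

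Gys2 encodes the liver glycogen synthase. It had values of 181 in IkkB KO, 89.0 in Shp2 KO, 69.9 in Double KO and 127 in WT livers. IkkB KO thus lay above WT and both genotypes without Shp2 below it, and the fall in Double KO livers (to 55.0% of WT, -0.85) was called. In hepatocytes Gys2 had 203 in IkkB KO, 81.7 in Shp2 KO, 52.3 in Double KO and 129.6 in WT samples, the same order. The Double KO fall there was to 40.4% of WT (-1.29, q = 0.00048 in the authors' deposited table, its smallest). The Shp2 KO fall in hepatocytes (-0.66) passed the threshold narrowly and was lost on adjustment within that comparison (q = 0.106).

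Ugp2 makes UDP-glucose, the substrate of glycogen synthase. Its values were 137 in IkkB KO, 68.7 in Shp2 KO, 61.4 in Double KO and 119 in WT livers, with falls to 57.6% of WT in Shp2 KO and 51.4% of WT in Double KO livers. In hepatocytes it had 183 in IkkB KO, 87.2 in Shp2 KO, 74.6 in Double KO and 125 in WT samples, with a called fall in the Double KO (-0.73). The order of genotypes was that of Gys2 in both tissues.

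Ppp1r3b and Ppp1r3c encode subunits that bring protein phosphatase 1 to glycogen, where it activates glycogen synthase. Ppp1r3c had values of 16.6 in IkkB KO, 6.48 in Shp2 KO, 4.82 in Double KO and 19.1 in WT livers, and fell to 33.9% of WT in Shp2 KO (-1.43) and to 25.2% of WT in Double KO livers (-1.79). Hepatocyte values were 16.6 in IkkB KO, 8.63 in Shp2 KO, 17.3 in Double KO and 29.0 in WT samples. All 3 knockouts fell there, by 0.77, 1.64 and 0.72 on the log2 scale in IkkB KO, Shp2 KO and Double KO samples, so the lowest value belonged to Shp2 KO in hepatocytes and to Double KO in liver. Ppp1r3b, the main liver subunit, had values of 61.0 in IkkB KO, 32.1 in Shp2 KO, 31.8 in Double KO and 49.7 in WT livers. It fell in both genotypes without Shp2 (-0.62 and -0.63). In hepatocytes Ppp1r3b had 44.7 in IkkB KO, 54.8 in Shp2 KO, 40.2 in Double KO and 65.6 in WT samples and fell in the Double KO (-0.69).

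Pygl, the liver phosphorylase that releases glucose 1-phosphate from glycogen, had values of 219.7 in IkkB KO, 153 in Shp2 KO, 103 in Double KO and 202 in WT livers. It fell in Double KO livers to 51.0% of WT (-0.96). In hepatocytes the values were 270.0 in IkkB KO, 184 in Shp2 KO, 186 in Double KO and 252 in WT samples, with no call (Double KO difference -0.44, q = 0.185 in the authors' deposited table). Gbe1, the branching enzyme, was the 1 member of the group that fell in no comparison with WT. Its values were 39.0 in IkkB KO, 37.7 in Shp2 KO, 33.3 in Double KO and 32.1 in WT livers, and 61.7 in IkkB KO, 45.8 in Shp2 KO, 42.0 in Double KO and 37.2 in WT hepatocytes. It rose in IkkB KO hepatocytes (0.72, q = 0.00413 in the authors' deposited table).

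Among the pentose phosphate genes 1 rose in both tissues. Pgd encodes 6-phosphogluconate dehydrogenase, an NADPH-making step of the oxidative branch. It had values of 25.6 in IkkB KO, 38.1 in Shp2 KO, 36.1 in Double KO and 25.3 in WT livers. The genotypes without Shp2 stood above the other 2, with rises of 0.57 and 0.49. In hepatocytes Pgd had 30.5 in IkkB KO, 35.1 in Shp2 KO, 34.9 in Double KO and 23.0 in WT samples, with rises of 0.58 in both Shp2 KO and Double KO samples. G6pdx, an earlier enzyme of the oxidative branch, was called nowhere. Its values were 2.19 in IkkB KO, 2.57 in Shp2 KO, 3.74 in Double KO and 3.09 in WT livers.

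Rpia, the isomerase that makes ribose 5-phosphate, had values of 5.57 in IkkB KO, 3.52 in Shp2 KO, 2.89 in Double KO and 4.86 in WT livers and fell in Double KO livers (-0.59, q = 0.0303 in the authors' deposited table). In hepatocytes it had 5.33 in IkkB KO, 2.55 in Shp2 KO, 2.60 in Double KO and 2.78 in WT samples and rose in IkkB KO samples (0.74). Tkt (transketolase) and Taldo1 (transaldolase), which run the reversible branch, were called nowhere. Tkt had 63.7 in IkkB KO, 81.0 in Shp2 KO, 60.1 in Double KO and 57.0 in WT livers.

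Set against each single knockout, more members were called between Double KO and IkkB KO than between Double KO and Shp2 KO mice. These comparisons share the Double KO libraries with each other and with the comparison against WT. In liver 13 members were lower in Double KO than in IkkB KO mice and 3 were higher (Hk2, Pkm and Slc2a1), beside 7.50% and 11.5% of 12925 tested genes (19.0% in all). In hepatocytes 12 were lower and 0 were higher, beside 5.62% and 5.75% of 12321 tested genes (11.4% in all), by q in the authors' deposited table, with 1 higher at an unadjusted p under 0.05. Called lower in both tissues were 10 genes: G6pc, Gckr, Gpi1, Gys2, Khk, Pfkfb3, Pklr, Rpia, Slc2a2 and Ugp2. Pklr was at 22.4% of the IkkB KO value in Double KO livers (-2.14), and Gys2 at 25.7% in Double KO hepatocytes (-1.94).

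Against Shp2 KO mice, Double KO livers were lower in 4 members and higher in 2, beside 2.83% and 7.94% of 12878 tested genes (10.8% in all). G6pc was lower by 1.60 on the log2 scale, Pklr by 1.04, Pfkfb1 by 0.81 and Khk by 0.72, and Hk1 and Pkm were higher (0.50 and 0.71). None of the 6 glycogen members was called there, and the nearest was Pygl (-0.56, q = 0.0512 in the authors' deposited table). In hepatocytes Slc2a2 and Gys2 were lower and Ppp1r3c was higher in Double KO than in Shp2 KO samples, beside 3.31% and 3.44% of 12250 tested genes (6.76% in all). The 2 lower calls (both -0.63) were lost when p-values were adjusted within the comparison. Ppp1r3c was at 17.3 in Double KO and 8.63 in Shp2 KO hepatocytes (0.92). The liver table also compared Shp2 KO with IkkB KO mice directly, where 9 members were lower in Shp2 KO livers and 2 higher, beside 4.84% and 5.43% of 12605 tested genes (10.3% in all). The 9 lower members included Gys2 (-1.02), Ugp2 (-0.98), Ppp1r3b (-0.91), Ppp1r3c (-1.23) and Pklr (-1.10), and the 2 higher ones were Hk2 (0.63) and Pgd (0.55).

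Calls in the 2 tissues were set side by side. For Double KO against WT, 33 members were tested in both, and 17 were called in liver and 12 in hepatocytes. All 12 of these hepatocyte calls were also liver calls in the same direction, which is 70.6% of the liver calls. Of the 33 differences, 28 had the same sign. Over all 11971 genes tested in both, shared calls were 53.5% of the liver calls and 69.6% of the hepatocyte calls, and 72.6% of differences had the same sign. Those shared were the rises of Hk1, Hk2, Pgd and Pkm and the falls of Gckr, Gys2, Khk, Pfkfb3, Pklr, Ppp1r3b, Ppp1r3c and Ugp2. The other 5 liver calls were G6pc, Pfkfb1, Pygl, Rpia and Slc2a1. For Shp2 KO mice 32 members could be tested in both, and 4 were called in both, which is 66.7% of 6 liver calls and 57.1% of 7 hepatocyte calls, near the 62.8% and 51.6% over all genes. For IkkB KO mice 1 liver call and 8 hepatocyte calls had no gene in common, where shared calls over all genes were 29.0% of the liver and 13.9% of the hepatocyte calls. No member was called in opposite directions in the 2 tissues, and the differences between tissues were not tested.

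**Figure D3:**
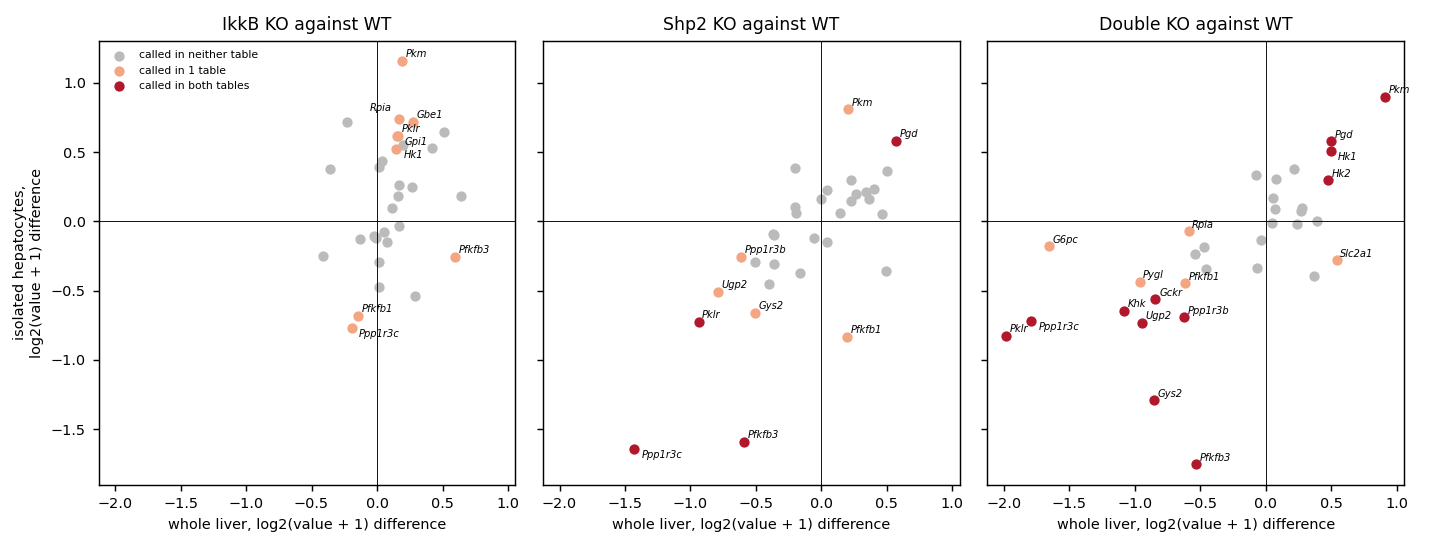
Log2(value + 1) difference from WT in whole liver (horizontal) and isolated hepatocytes (vertical) for each member tested in both, in 1 panel per knockout. Dark red points were called in both tables, orange in 1 and grey in neither. The Double KO panel has 12 dark red points, 8 of them in the lower left, and G6pc far to the left (-1.66) but near 0 on the vertical axis (-0.18).

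For several members, Gys2 among them, the single knockouts lay on opposite sides of WT while the Double KO was low, and the Double KO was set beside the sum of both single differences. This comparison could not be tested, since there are no replicate values. In liver the Double KO difference minus that sum had a median of -0.29 over 33 members and ran from -1.37 to 0.85, where the median of 12348 genes was 0.02. It was under -0.5 in 11 members, beside 7.90% of all genes, and over 0.5 in 3, beside 7.91%. The lowest were G6pc (-1.37), Pklr (-1.20), Khk (-0.99) and Gys2 (-0.85). For G6pc the single differences were -0.23 and -0.06, against -1.66 in the Double KO. The 3 high members were Ldha (0.85), G6pdx (0.77) and Pkm (0.52).

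In hepatocytes the median over 34 members was -0.21, with a range of -1.28 to 1.69, where the median of 11788 genes was 0.01. It was under -0.5 in 12 members, beside 8.48% of all genes, and over 0.5 in 3, beside 5.90%. Gys2 was lowest (-1.28), with single differences of 0.65 and -0.66 and a Double KO difference of -1.29. G6pc, Pklr, Khk, Slc2a2 and Gys2 were under -0.5 in both tissues, and Ldha was over 0.5 in both. Past the same limits, 2 members lay on opposite sides in the 2 tissues: Pkm was above the sum in liver and below it in hepatocytes (-1.07), and Pfkfb1 was below it in liver (-0.66) and above it in hepatocytes (1.07). Ppp1r3c was the highest in hepatocytes (1.69), where the Double KO value lay near that of IkkB KO and above that of Shp2 KO samples.

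**Figure D4:**
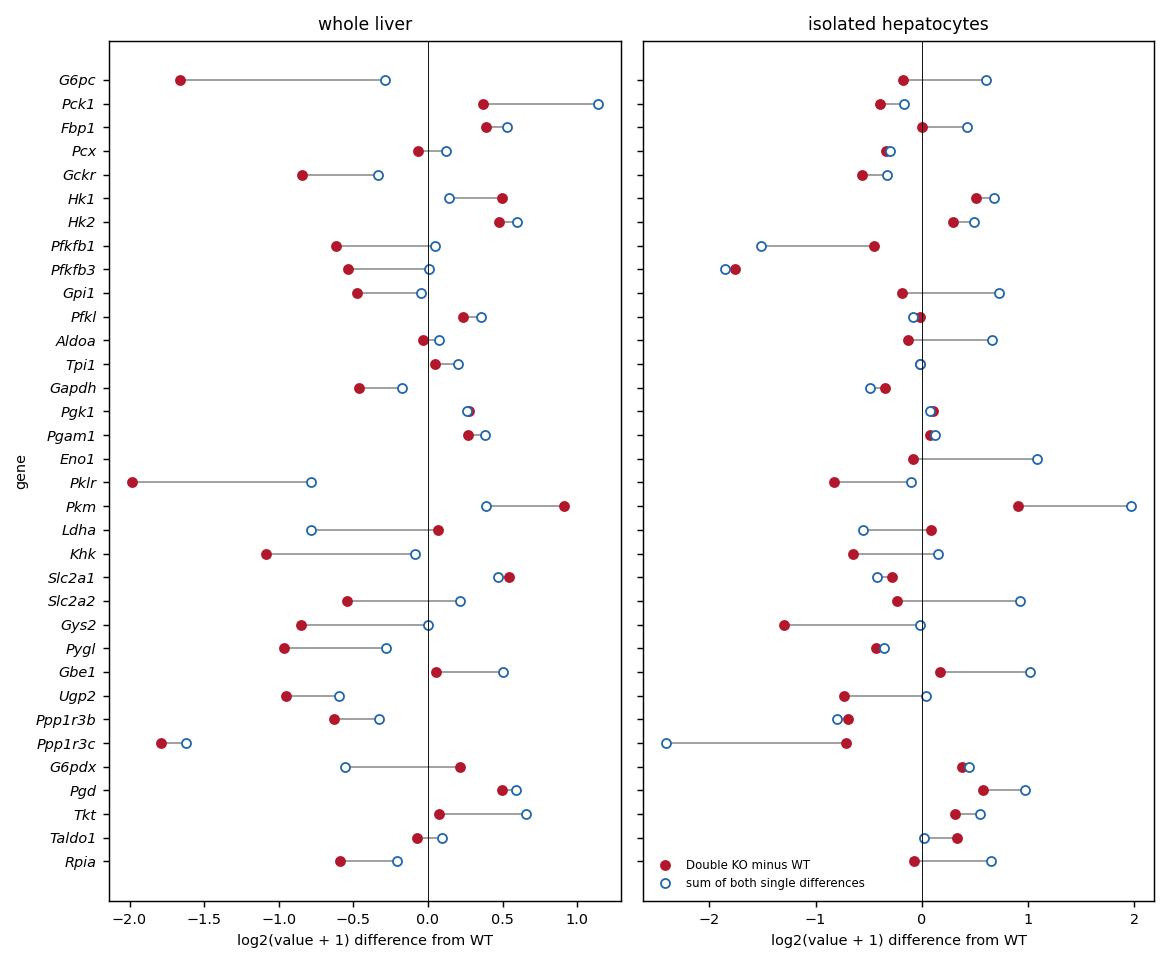
For each member (vertical), the Double KO difference from WT (filled red) and the sum of the IkkB KO and Shp2 KO differences (open blue), on the log2(value + 1) scale (horizontal), in whole liver (left) and isolated hepatocytes (right). The longest lines in liver belong to G6pc and Pklr, where the Double KO lies 1.37 and 1.20 below the sum, and in hepatocytes to Ppp1r3c, where it lies 1.69 above.

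A wider list of 98 further glucose genes was chosen by role, also with earlier results of these data known. In Double KO livers 10 of 91 tested fell and 11 rose, beside 6.62% and 11.5% of all tested genes. In Double KO hepatocytes 12 of 88 fell and 7 rose, beside 4.56% and 9.04%. The rises were near the share among all genes. Mlxipl, the glucose-sensing factor ChREBP of which Pklr is a textbook target, had values of 170 in IkkB KO, 108 in Shp2 KO, 60.6 in Double KO and 159 in WT livers and fell in the Double KO (-1.38). Hepatocyte values were 74.4 in IkkB KO, 56.3 in Shp2 KO, 53.0 in Double KO and 88.1 in WT samples, and fell in Shp2 KO (-0.64) and Double KO samples (-0.72). A link between the Mlxipl and Pklr values was not tested. Thrsp, a lipogenic gene switched on by carbohydrate, had 1394 in IkkB KO, 801 in Shp2 KO, 198 in Double KO and 868 in WT livers, with a called fall in the Double KO (-2.13). Its hepatocyte fall was -1.98. Srebf1, the insulin-driven lipogenic factor, fell in Double KO livers (-0.96), in Shp2 KO hepatocytes (-0.66) and in Double KO hepatocytes (-1.34).

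Onecut1, the factor HNF6, had values of 4.74 in IkkB KO, 5.68 in Shp2 KO, 2.01 in Double KO and 9.62 in WT livers and fell in all 3 knockouts. In hepatocytes it had 13.0 in IkkB KO, 5.40 in Shp2 KO, 9.30 in Double KO and 30.7 in WT samples and again fell in all 3. G6pc, whose promoter holds ATCAAT, fell against WT only in Double KO livers. A link between the Onecut1 and G6pc values was not tested. Txnip, an inhibitor of glucose uptake, had values of 37.2 in IkkB KO, 31.2 in Shp2 KO, 22.2 in Double KO and 49.4 in WT livers and fell in Shp2 KO and Double KO livers (-0.65 and -1.12). Its hepatocyte values were 58.0 in IkkB KO, 26.1 in Shp2 KO, 27.0 in Double KO and 21.9 in WT samples, with a rise in IkkB KO samples (1.36).

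Several genes of the wider list were called higher in knockouts. Ppp1r3g, another glycogen-targeting subunit, had 3.15 in IkkB KO, 6.94 in Shp2 KO, 7.21 in Double KO and 1.30 in WT livers and rose in all 3 knockouts of both tissues. Pygb, the brain form of phosphorylase, had 1.39 in IkkB KO, 2.31 in Shp2 KO, 4.71 in Double KO and 1.32 in WT livers and rose in the Shp2 KO and Double KO livers. In hepatocytes Pygb rose in all 3 knockouts, with 1.58 in IkkB KO, 2.47 in Shp2 KO, 3.04 in Double KO and 0.882 in WT samples. Pdk4, the kinase that shuts pyruvate out of the citric acid cycle, had 0.711 in IkkB KO, 3.04 in Shp2 KO, 2.29 in Double KO and 0.657 in WT livers. Hepatocyte values were 0.706 in IkkB KO, 1.71 in Shp2 KO, 5.32 in Double KO and 0.648 in WT samples, with rises in the 2 genotypes without Shp2 in both tissues. Galk1 (galactokinase) rose in Shp2 KO and Double KO livers (1.18 and 0.88) and hepatocytes (0.73 and 0.54). Slc5a1, a sodium-coupled glucose carrier, rose in Shp2 KO and Double KO livers (0.74 and 1.15) and hepatocytes (1.74 and 1.55). Slc2a4, the insulin-responsive transporter GLUT4, rose in Shp2 KO and fell in Double KO mice of both tissues, with 3.43 in Shp2 KO, 0.150 in Double KO and 1.64 in WT livers.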

How the data were processed

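PolyA RNA of whole liver and isolated hepatocytes had been extracted with different RNeasy kits and made into libraries with the Illumina TruSeq v2 kit, per the labels' protocols. FastQC, Cuffdiff and the mouse build mm9 are named in the submitters' processing notes. The strand setting, aligner, annotation and program versions were not given in the sources used here. The authors deposited 1 Cuffdiff table per tissue. Its expression values, deposited by the authors as 1 per gene and genotype, have no unit in the header and are called FPKM by the convention of Cuffdiff. The authors also deposited log2 fold changes of these values, used here as a check, which matched recomputed ones within 1.12e-05 for the members. Each p-value and q-value was deposited by the authors from Cuffdiff, q being p after Benjamini-Hochberg adjustment. Liver q-values could be recomputed over all 6 pairs of genotypes (largest difference 5.27e-07), but hepatocyte q-values could not from the 5 pairs at hand (largest difference 0.284). The smallest q-values were 0.000955 (liver) and 0.00048 (hepatocytes). The tables hold 0 columns per sample and no counts, so depth and its precision are unknown and no test across samples was computed. Samples were grouped by the genotype and tissue in their labels. The labels call the replicates biological without naming animals, so p-values measure only the spread between these samples.

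Tools were scipy 1.17.1, matplotlib 3.10.9, pandas 2.3.3 and numpy 2.4.6 under Python 3.11.15. Genes were called at a q-value under 0.05 among genes that Cuffdiff tested, at 0.1 or more in either genotype. Differences were computed as log2(value + 1), knockout minus its control. The counting of calls was checked on simulated data. The members and lists were chosen with earlier results of these data known. Values are given for every member called against WT; of the wider list of glucose genes, up to 8 per tissue with the smallest q-value were eligible to be named, plus Pdk4 and Mlxipl and a few genes not reported here. Promoters came from RefSeq, GRCm38.p6, with no coordinates converted; Gys2 and Ppp1r3b had no entry. Alternatives were the pseudocounts 0.1 and 0.01, other minimum values, a q-value of 0.01, a log2 difference of at least 1, adjustment within a comparison and centring on the median.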

Additional observations from a re-analysis of the deposited data

How the results depend on the processing

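No paired analysis was possible because the tables hold no value per replicate, and leaving out replicates was not run for the same reason, so no result could be checked against a single library. The median member differences and the medians of the Double KO minus the sum moved by under 0.1 with pseudocounts of 0.1 and 0.01 and with centring, and no call depended on the absence of a minimum value. With a q-value under 0.01 in place of 0.05, members called higher in liver numbered 0 for IkkB KO, 1 for Shp2 KO and 3 for Double KO against WT, and those called lower in Shp2 KO numbered 3. In hepatocytes the same limit gave 2 higher in IkkB KO, 1 higher and 3 lower in Shp2 KO, 1 higher and 4 lower in Double KO against WT, and 0 lower in Double KO against Shp2 KO. With a log2 difference of at least 1, liver counts against WT were 0 higher in IkkB KO, 0 higher and 1 lower in Shp2 KO, and 0 higher and 4 lower in Double KO. Double KO livers then had 0 higher against IkkB KO, and 0 higher and 2 lower against Shp2 KO. Hepatocyte counts against WT at that size were 1 higher and 0 lower in IkkB KO, 0 higher and 2 lower in Shp2 KO, and 0 higher and 2 lower in Double KO. Double KO hepatocytes then had 4 lower against IkkB KO, and 0 higher and 0 lower against Shp2 KO. A minimum value of 1 left 2 higher in Double KO hepatocytes against WT, since Hk1 and Hk2 lie below it. Adjustment within a comparison left 0 lower in Double KO against Shp2 KO hepatocytes and ended 5 of 52 member calls against WT, all in hepatocytes (Gpi1 and Pklr in IkkB KO, Gys2 in Shp2 KO, Gckr and Khk in Double KO). A stricter limit on q or on size leaves fewer calls by construction.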

Other observations

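The WT values of the 2 tables, which were normalized separately and cannot be compared by a test, stood far apart for a few glycolytic enzymes. Gapdh was at 61.2 in WT hepatocytes and 469 in WT livers, Pgk1 at 12.4 and 51.0, and Pgam1 at 2.84 and 11.7. Tpi1 was at 293 in WT hepatocytes and 209.7 in WT livers, and Aldoa at 79.8 and 110.0. Gapdh, Pgk1, Pgam1 and Tpi1 are among the genes named above with near-identical processed copies, so these values are uncertain. Whether their levels differ between the tissues was not tested.

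In the wider list, Hk3, the hexokinase of blood cells, had values of 3.32 in IkkB KO, 1.65 in Shp2 KO, 3.31 in Double KO and 1.59 in WT livers and rose in IkkB KO and Double KO livers and hepatocytes. The macrophage marker sums beside it were 408 in IkkB KO, 426 in Shp2 KO, 871 in Double KO and 308 in WT livers, and the part of macrophages in it was not tested. Slc37a4, which carries glucose 6-phosphate to glucose-6-phosphatase, fell in Double KO livers (-0.63) and in Double KO hepatocytes (-0.90), whereas G6pc was called in liver (-1.66) and not in hepatocytes (-0.18). Both genes were chosen after their values were seen.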
